A study of Mus musculus with 12 samples.

Results

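The 10 genes described here break down heme or belong to the antioxidant response that the transcription factor Nrf2 controls: Blvrb, Blvra, Hmox1, Hmox2, Nfe2l2, Nqo1, Gclc, Gclm, Txnrd1 and Srxn1. All 10 were found by symbol among the 25284 genes of the deposited count table, and all 10 were among the 15857 genes that passed a filter on low counts. The list was chosen by pathway, around Blvrb, which was itself picked because its counts were slightly higher in treated mice. The group difference of Blvrb is therefore given as a description, and where it enters a count of calls that call is no independent support. RNA was sequenced from the thoracic aorta of male ApoE-/- mice on a C57BL/6 background, aged 18 weeks and given a high fat diet enriched in cholesterol. All 12 animals lacked apolipoprotein E and carried osmotic minipumps for 8 weeks. The 6 treated mice (A1 to A6) received AZ6983, an agonist of the alpha 7 nicotinic acetylcholine receptor, at 50 µmol per kg per day, and the 6 control mice (C1 to C6) received vehicle, cyclodextrin in saline.

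Library totals on genes were 23810036 to 35864666 counts, so that each of the 10 genes had between 253 and 3469 counts in every mouse. The share of reads on no gene was 8.02% to 12.7% in controls and 11.2% to 14.9% in AZ6983 mice. These ranges overlap only in part, so a fit with this share as a model term cannot well separate it from treatment. The smooth muscle actin gene Acta2 was at 2853 RPKM in controls and 2778 in AZ6983 mice. Genes of fat were also present. The mean log2 CPM was 7.94 in controls and 8.05 in AZ6983 mice for adipocyte genes, and 7.80 and 7.56 for brown fat genes. For endothelial genes it was 6.60 and 6.74. In mouse A4 genes of T cells and thymocytes stood far above those of the other mice, and the column taken for A1 shows only 3 of the 4 digits in that mouse number. Mouse A5 had a TMM scaling factor of 0.837, against 0.987 to 1.07 in the other mice. Its mean log2 CPM of brown fat genes was 8.47, against 7.15 to 7.70 in the other AZ6983 mice. In RNA from whole tissue, fewer cells of a type cannot be told apart from less RNA per cell.

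Heme oxygenase opens the heme ring and releases iron, carbon monoxide and biliverdin, which biliverdin reductase turns into bilirubin. Hmox1 encodes the inducible oxygenase and Hmox2 the constitutive one. Nfe2l2 encodes Nrf2, which Keap1 holds for degradation until oxidants or electrophiles release it, and Nrf2 then binds antioxidant response elements near genes for glutathione synthesis, thioredoxin recycling and quinone reduction. In the vessel wall, heme oxygenase 1 is known from macrophages of plaques and from stressed smooth muscle and endothelium.

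The core of the antioxidant response element, TGACNNNGC, was searched on both strands from 250 bases before to 50 bases after the RefSeq start sites (GRCm38.p6), and the matches are shown to place the motif by which Nrf2 recognizes its targets. Windows were at hand for 8 of the 10 genes, and 5 of these genes had a match in at least 1 window, where 14.0% of all 27025 genes had one. Counted by window, 5 of 13 had a match, against 12.4% of all 32851 windows. The genes were listed for this response, and binding of Nrf2 was not measured. The 5 genes were Blvra, Nfe2l2, Gclm, Txnrd1 and Srxn1. The stretches are printed in the direction of the gene, with the motif or its reverse complement in capitals.
Blvra, chr2:127070592-127070632, plus strand: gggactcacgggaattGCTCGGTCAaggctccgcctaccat
Nfe2l2, chr2:75704879-75704913, minus strand: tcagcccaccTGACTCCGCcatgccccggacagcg
Gclm, chr3:122245407-122245447, plus strand: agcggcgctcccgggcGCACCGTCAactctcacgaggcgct
Txnrd1, chr10:82859098-82859138, plus strand: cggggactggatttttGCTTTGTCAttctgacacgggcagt
Srxn1, chr2:152105536-152105573, plus strand: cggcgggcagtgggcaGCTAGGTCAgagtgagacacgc
In Txnrd1 the match lay in 1 of 3 windows. The windows of Blvrb, Hmox2 and Nqo1 held no match, which says only that these letters are absent from those windows.

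Of the 10 genes, Blvrb alone had a higher mean in AZ6983 mice. Blvrb (chr7:27447978-27466144, GRCm38) encodes biliverdin reductase B, which also reduces flavins and is abundant in red cells. Its level was 35.3 CPM in the lowest control, 37.0 at the median and 40.6 in the highest, and in AZ6983 mice 40.3, 42.4 and 44.8 CPM. CPM are counts scaled to the library total after TMM scaling of the libraries. Thus 5 of 6 AZ6983 mice lay above every control, and the groups overlapped only through A1, just below C2. Controls averaged 37.2 ± 1.87 CPM (SD, n = 6) and AZ6983 mice 42.5 ± 1.70 CPM (SD, n = 6), which is a log2 fold change (log2FC, AZ6983 over control) of 0.19 with a standard error (SE) of 0.0482, or 14.3%. Blvrb varied little between mice of a group, since only 1.63% of the genes tested had a smaller within-group SD of log2 CPM. This rank is over genes of every level, of which 72.2% were lower than Blvrb. Picking a gene for a small difference also favours a small SD, so the rank is a description.

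The log2FC of Blvrb was between 0.16 and 0.21 with any 1 mouse left out. With the no-gene share of reads as a model term it was 0.14 (SE 0.0647). Over the 12 mice, with group means removed, Blvrb and the mean log2 CPM of red cell genes had a Pearson's r of -0.514 (permutation p = 0.0895, adjusted 0.482). The part of red cells in the level of Blvrb was not tested further. Blvra (chr2:127070665-127097084) encodes biliverdin reductase A, the main enzyme that makes bilirubin from biliverdin. Controls ran from 20.2 to 26.9 CPM and AZ6983 mice from 19.8 to 24.6, with medians of 22.2 and 23.0. The ranges largely coincided, and the log2FC was -0.0075 (SE 0.0807, adjusted p = 0.981 from edgeR). Per length, Blvrb was at 1.54 ± 0.199 times the level of Blvra in controls and at 1.76 ± 0.156 times in AZ6983 mice (SD, n = 6 each), values that rest on the choice of Blvrb and were not tested.

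**Figure D1:**
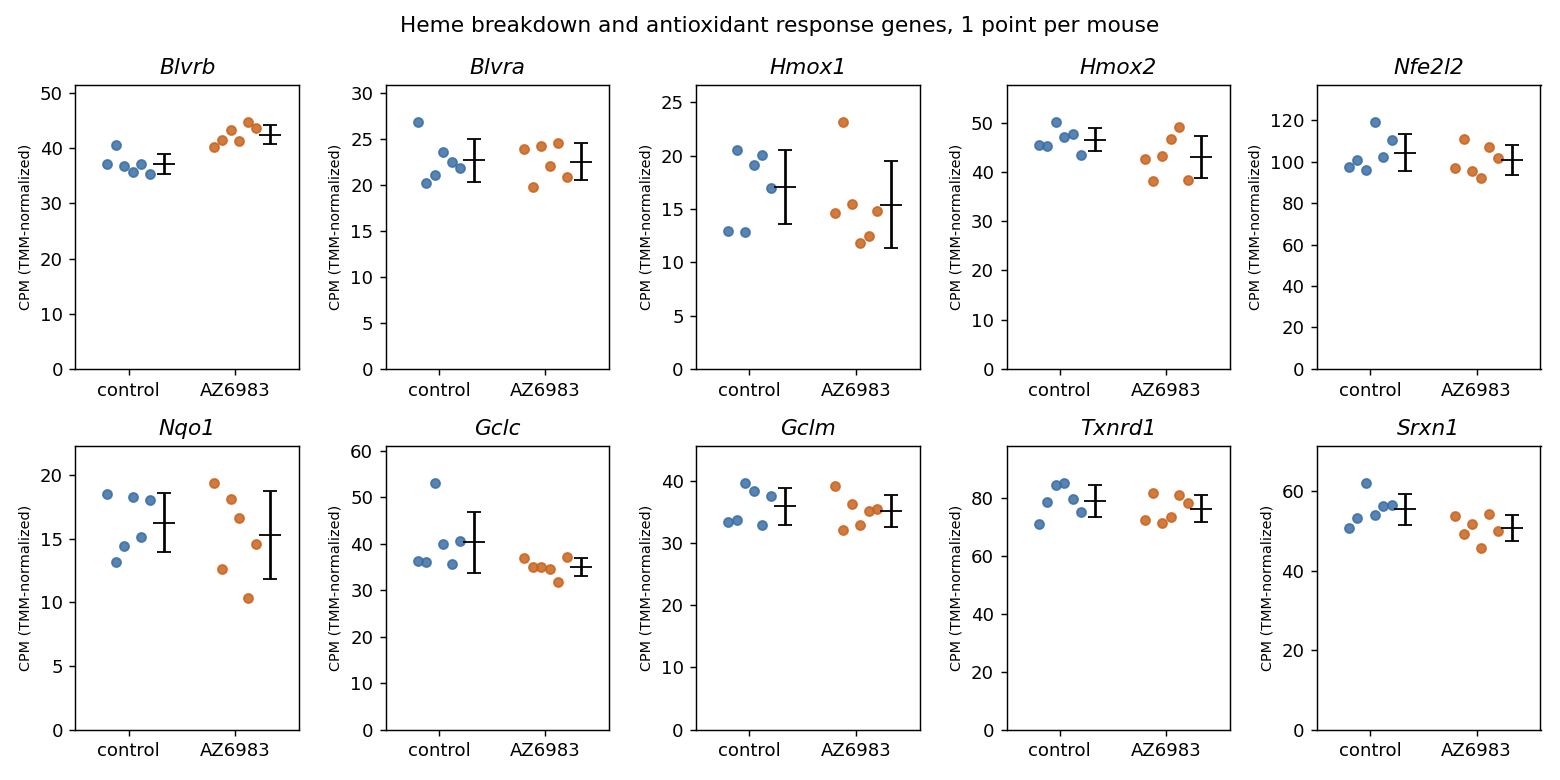
Normalized counts (CPM, vertical axes from 0) of each of the 10 genes in 6 control and 6 AZ6983 mice, 1 point per mouse, with the mean and SD beside the points. Of Blvrb 5 AZ6983 mice lie above all controls, and the groups overlap in all 10 genes, by a narrow range in Gclc, where control C3 stands apart at 53.1 CPM.

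Neither heme oxygenase gene was called as different between the groups, in the main fit or in any alternative. The lack of a call does not show that their levels were equal. Hmox1 (chr8:75093621-75100589) was at 12.9 CPM in the lowest control, 18.0 at the median and 20.5 in the highest. In AZ6983 mice the values were 11.8, 14.7 and 23.2 CPM. The highest mouse of all, A2, and the lowest, A4, were both treated, and the coefficient of variation was 20.2% in controls and 26.3% in AZ6983 mice. The log2FC was -0.15 (SE 0.173, adjusted p = 0.764), and -0.32 without A2 (edgeR, unadjusted p = 0.0443, adjusted 0.569). With the no-gene share in the model it was -0.56 (SE 0.193, unadjusted p = 0.0131, adjusted p = 0.9998). Hmox2 (chr16:4726361-4766742) ran from 43.5 to 50.1 CPM in controls and from 38.2 to 49.0 in AZ6983 mice, with medians of 46.3 and 42.9. For Hmox2, 4 of 6 AZ6983 mice were below the lowest control, with a log2FC of -0.11 (SE 0.0679, adjusted p = 0.560). It was -0.17 without A5 (edgeR, unadjusted p = 0.0145, adjusted p = 0.311) and -0.18 in limma-voom with quality weights (unadjusted p = 0.00925, adjusted p = 0.222). With the no-gene share in the model the log2FC of Hmox2 was -0.018. The Hmox2 locus overlaps Cdip1 on the opposite strand and Gm15859 on the same strand. Further overlaps on the same strand are Gm24996 with Nfe2l2, Gm6061 with Gclm and Eid3 with Txnrd1.

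Within each mouse, the level of Hmox1 per length was divided by that of Hmox2, a ratio that does not depend on library scaling. It was 0.506 ± 0.109 in controls and 0.504 ± 0.178 in AZ6983 mice (SD, n = 6 each). The difference of the mean log2 ratio was -0.04 (exact permutation test over all assignments of mice, two-sided, p = 0.883, and 0.883 after adjustment over 2 ratios). The ratio was below 1 in every mouse, with A2 highest at 0.833 and A4 lowest at 0.349.

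Nfe2l2 (chr2:75675513-75704641, minus strand) was the most abundant of the 10 genes in CPM and per length. It was at 96.2 CPM in the lowest control, 101 at the median and 119 in the highest, and at 92.3, 99.3 and 111 CPM in AZ6983 mice. The groups overlapped in most of their range, and the log2FC was -0.05 (SE 0.0662, adjusted p = 0.801). Nqo1 (chr8:107388225-107403206, minus strand), which encodes a quinone reductase and is a classical Nrf2 target, ran from 13.2 to 18.5 CPM in controls and from 10.3 to 19.4 in AZ6983 mice, with medians of 16.6 and 15.6. Both the lowest mouse, A5, and the highest, A1, were in the AZ6983 group. The log2FC of Nqo1 was -0.09 (SE 0.149, adjusted p = 0.847), and lay between -0.17 without A1 and -0.021 without A5. With the no-gene share in the model the sign of Nqo1 turned, to 0.24 (SE 0.174), and that of Blvra to 0.22 (SE 0.0751), both at an adjusted p of 0.9998.

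Gclc (chr9:77754535-77794485) encodes the catalytic and Gclm (chr3:122245557-122270732) the modifier subunit of glutamate cysteine ligase, which makes the rate-limiting step of glutathione synthesis. Gclc was at 35.6 CPM in the lowest control, 38.1 at the median and 53.1 in the highest, mouse C3, and at 31.8, 35.0 and 37.2 CPM in AZ6983 mice. In 4 of 6 AZ6983 mice it was below every control. Its log2FC was -0.20 (SE 0.0931, adjusted p = 0.492), and -0.12 without C3 (SE 0.0607). Gclm ran from 32.9 to 39.7 CPM in controls and from 32.1 to 39.1 in AZ6983 mice, with medians of 35.7 and 35.3. The groups lay over each other, with a log2FC of -0.03 (SE 0.0671, adjusted p = 0.891). With the no-gene share in the model the sign turned, to 0.05.

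The ratio of Gclc to Gclm per length was 1.82 ± 0.179 in controls and 1.63 ± 0.120 in AZ6983 mice (SD, n = 6 each). It ran from 1.70 to 2.19 in controls and from 1.47 to 1.78 in AZ6983 mice, so the ranges overlapped. The mean log2 ratio differed by -0.16 (exact permutation test, two-sided, p = 0.0325, and 0.0649 after adjustment over 2 ratios). Without C3, the control with the highest ratio, the difference was -0.11 (exact permutation p = 0.0758).

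Txnrd1 (chr10:82833951-82897712) encodes thioredoxin reductase 1, and Srxn1 (chr2:152105516-152111376) sulfiredoxin, which restores overoxidized peroxiredoxins. Txnrd1 ran from 71.0 to 85.2 CPM in controls and from 71.1 to 81.7 in AZ6983 mice, with medians of 79.0 and 75.7. The groups shared nearly the whole range, and the log2FC was -0.05 (SE 0.0582, adjusted p = 0.763). Srxn1 was at 50.6 CPM in the lowest control, 55.1 at the median and 62.1 in the highest, and at 45.6, 50.7 and 54.3 CPM in AZ6983 mice. For Srxn1, 3 AZ6983 mice were below every control and 3 controls above every AZ6983 mouse. The log2FC was -0.13 (SE 0.0600, adjusted p = 0.495).

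Across the list, 0 of 10 genes were called by edgeR at 10% FDR (quasi-likelihood test), as did 0% of all genes tested, among which the smallest adjusted p was 0.157. DESeq2 called 1 of the 10, Blvrb, for which the list was chosen, and in all 92 of the 17592 genes it tested. Besides Blvrb, 0 of the other 9 had an unadjusted p under 0.05 in edgeR, where 7.38% of all genes were higher and 2.81% lower in AZ6983 mice at that level. Gclc and Srxn1 lay close to that limit, at an unadjusted p of 0.0505 and 0.0527 in edgeR, both lower in AZ6983 mice. Whether they passed it depended on the fit. Both did with RLE scaling (0.0448 and 0.0480), with upper-quartile scaling (0.0422 and 0.0436), without the filter (0.0291 and 0.0407) and in DESeq2 (0.0363 and 0.0307). Neither did in edgeR with a mean of at least 50 counts (0.0581 and 0.0685) or with the no-gene share in the model (0.244 and 0.227). The same held without C3 (0.0742 and 0.0860) and in limma-voom (0.0620 and 0.0594). Both passed in DESeq2 on filtered genes (0.0416 and 0.0396), and in edgeR without C1 (0.0371 and 0.0271) or C2 (0.0275 and 0.0303). Gclc alone passed without C5 (0.0268), and Srxn1 alone without A1 (0.0389) or A5 (0.0165). With any other mouse left out neither passed. With quality weights in limma-voom Gclc was at 0.160 and Srxn1 at 0.0358. The log2FC was below 0 for 9 of the 10, against 47.6% of all genes, and the median was -0.07, against 0.0090 over all genes. Blvra is within this count by a margin far below its SE. In 0 of the 10 were the groups separate, which was the case for 0.259% of all genes in the higher and 0.151% in the lower direction.

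**Figure D2:**
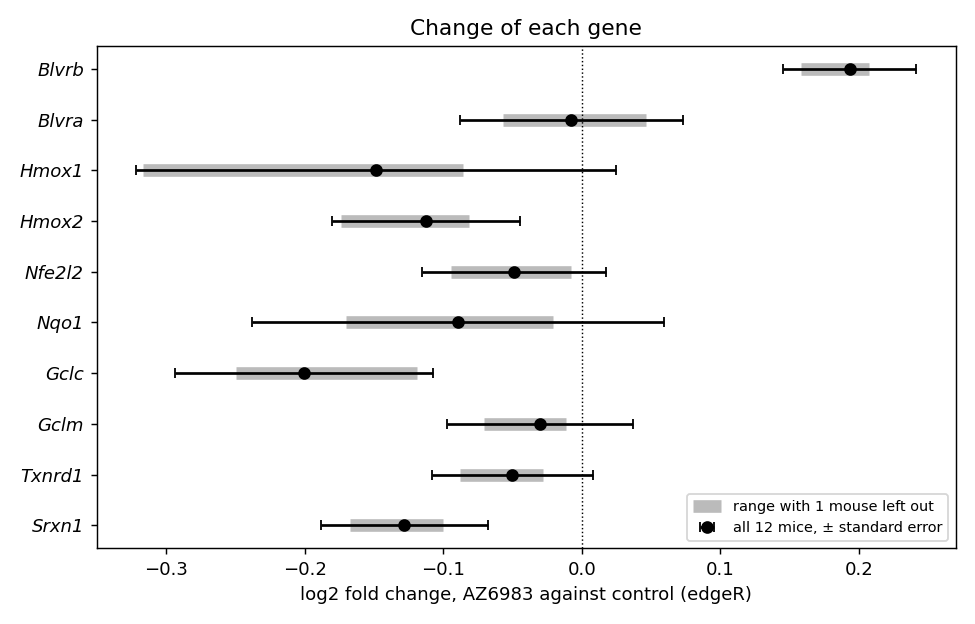
Log2FC of each gene between AZ6983 and control mice (horizontal axis), as points with SEs from all 12 mice and grey bars for the range over the 12 fits with 1 mouse left out. Blvrb is at 0.19 and the other genes lie between -0.20 and -0.0075, with the widest error for Hmox1, 0.173.

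Per length, the order of the genes was Nfe2l2, Blvrb, Hmox2, Txnrd1, Srxn1, Blvra, Gclc, Hmox1, Nqo1 and Gclm. Nfe2l2 was at 42.1 ± 3.57 RPKM (SD, n = 6) and Gclm at 6.43 ± 0.527 RPKM (SD, n = 6) in controls. RPKM are the normalized CPM per kilobase of exon in GENCODE M21. Nfe2l2 exceeded Blvrb, Blvrb exceeded Hmox2, Blvra exceeded Gclc and Nqo1 exceeded Gclm in 12 of 12 mice. Some neighbours in this order could not be separated: Txnrd1 was above Srxn1 in 6 of 12 mice, and Hmox1 above Nqo1 in 6 of 12. Hmox2 was above Txnrd1 in 10, Srxn1 above Blvra in 9 and Gclc above Hmox1 in 8 of the 12 mice.

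**Figure D3:**
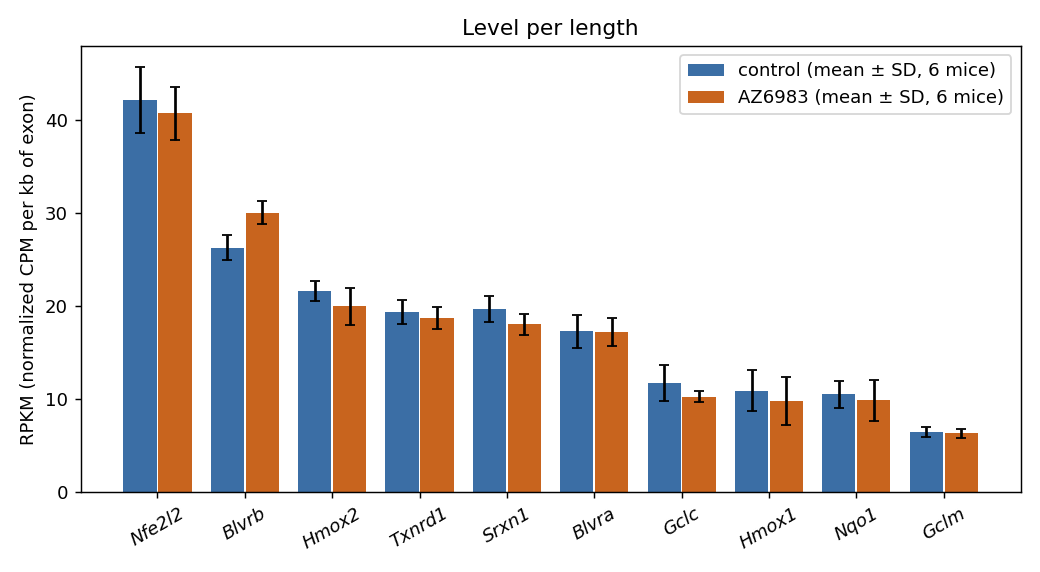
Mean level of each gene in RPKM (vertical axis from 0), with SD over 6 control or 6 AZ6983 mice, in order of level. Nfe2l2 stands highest at 42.1 RPKM in controls and Gclm lowest at 6.43, and Txnrd1 and Srxn1 are close together.

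The genes around this response were taken from 8 lists, and 0 genes of any list passed 10% FDR in edgeR. Heme synthesis had 9 genes tested, 7 with a log2FC above 0, and a median of 0.11. Alas1, the first enzyme of heme synthesis in most tissues, was highest per length and had a log2FC of 0.26 (SE 0.143). Its red cell counterpart Alas2 was at 0.56 (SE 0.616), and Uros was lowest at -0.15 (SE 0.113). Heme and iron handling had 20 of 22 genes tested, with a median of -0.01. The ferritin heavy chain gene Fth1 was the most abundant, at 811 RPKM in controls and 748 in AZ6983 mice, with a log2FC of -0.12 (SE 0.0748). The transferrin receptor gene Tfrc was highest at 0.36 (SE 0.184), and haptoglobin, Hp, lowest at -0.30 (SE 0.177). The filter left out Hpx, with at most 26 counts per mouse, and Hamp, with at most 5.

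Among the genes that control Nrf2, 8 of 14 had a log2FC above 0, and the median was 0.02. Keap1 was at 42.6 ± 2.08 CPM without and 43.4 ± 1.24 CPM with AZ6983 (SD, n = 6 each). Sqstm1, whose product binds Keap1, was highest per length and had a log2FC of -0.13 (SE 0.0673). Nfe2, a factor of red cell and platelet precursors, was at 1.32 (SE 0.446) on 8 to 90 counts per mouse, and Maff was lowest at -0.18 (SE 0.0850). Bach1, which represses Hmox1 until heme displaces it, was at 0.18 (SE 0.0692, adjusted p = 0.450), and was named after its value was seen, as was Keap1.

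Of the glutathione list 27 of 30 genes were tested, with 15 above 0 and a median of 0.0072. Gpx1, a glutathione peroxidase, was the most abundant per length and had a log2FC of -0.12 (SE 0.0904). Slc7a11, the cystine transporter, was highest at 1.18 (SE 0.848), with 12 to 754 counts per mouse, the most in A4, and Ggt7 lowest at -0.33 (SE 0.361). Of 14 thioredoxin and peroxiredoxin genes 12 were below 0, with a median of -0.06. In that list Txnip, an inhibitor of thioredoxin, was highest per length, at -0.06 (SE 0.180). Txnrd2, the mitochondrial thioredoxin reductase, was lowest at -0.28 (SE 0.140), and Sesn3 highest at 0.12 (SE 0.101).

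For NADPH supply the median over 10 genes was 0.04, with 6 above 0. The transketolase gene Tkt was the most abundant, at 0.11 (SE 0.180), Me1 was highest at 0.15 (SE 0.199) and Mthfd2 lowest at -0.55 (SE 0.242, adjusted p = 0.478). Of 11 superoxide and peroxide genes tested 8 were below 0, with a median of -0.11. Sod1, the cytosolic superoxide dismutase, was highest per length, at 0.02 (SE 0.0932). Nox4, an NADPH oxidase of the vessel wall, was lowest at -0.30 (SE 0.173), and Ncf4 of the phagocyte oxidase highest at 0.25 (SE 0.202). Of 12 other Nrf2 targets tested 7 were above 0, with a median of 0.04. Ces1d was highest per length, at 0.16 (SE 0.187), and Tsc22d4 had the highest log2FC, 0.21 (SE 0.112). Ephx1, epoxide hydrolase, averaged 108 ± 8.46 CPM in controls against 86.7 ± 11.9 CPM in treated animals (SD, n = 6 each). For Ephx1, 4 of 6 AZ6983 mice were below every control, at a log2FC of -0.31 (SE 0.0892, adjusted p = 0.447).

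**Figure D4:**
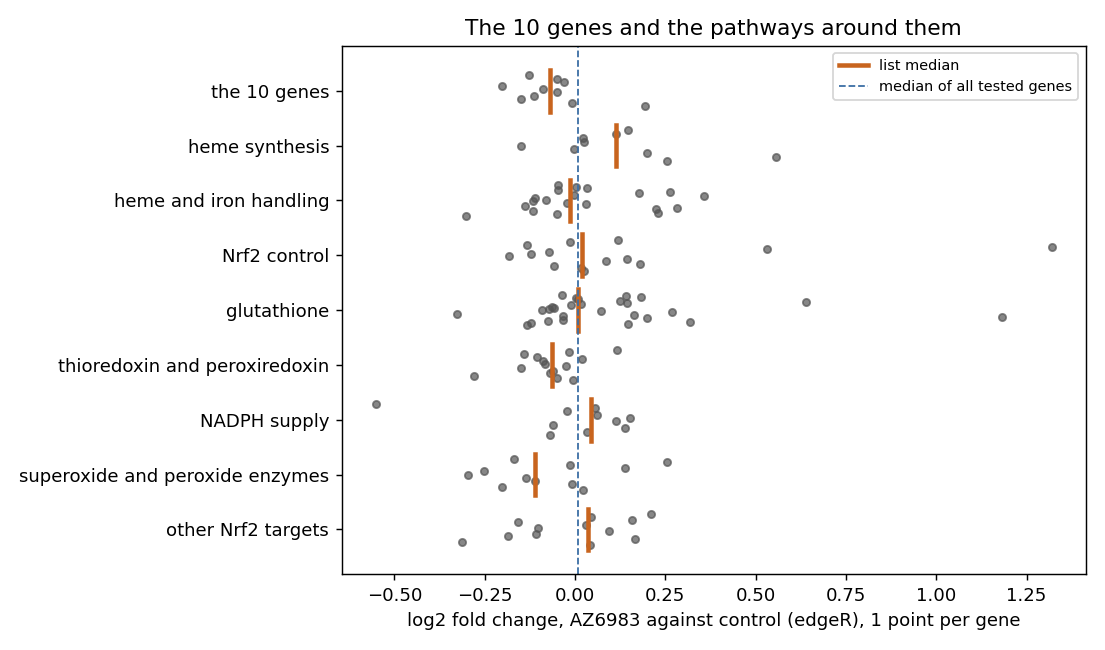
Log2FC between AZ6983 and control mice (horizontal axis) of the 10 genes and of the tested genes of 8 lists around them, 1 point per gene, with the list median as a bar and the median of all tested genes as a dashed line. List medians lie between -0.11 and 0.11, and the points farthest to the right are Nfe2 at 1.32 and Slc7a11 at 1.18.

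Genes of cells that carry much of this machinery were followed as lists. Red cell genes had 10 of 10 tested members above 0, with a median log2FC of 0.65, but their mean log2 CPM ran from 3.43 to 5.79 in controls and from 3.31 to 6.39 in AZ6983 mice (exact permutation p = 0.444, adjusted over 8 lists 0.507). Of that list, Klf1 was left out by the filter and had at most 6 counts per mouse. Macrophage genes had 10 of 15 below 0, and their mean log2 CPM was 5.79 ± 0.213 in controls and 5.57 ± 0.421 in AZ6983 mice (SD, n = 6 each, exact permutation p = 0.286, adjusted 0.507). Neutrophil genes had 9 of 9 tested members above 0, with mean log2 CPM from 0.511 to 2.08 in controls and from 1.603 to 4.05 in AZ6983 mice (exact permutation p = 0.00866, adjusted 0.0693). Mpo, Elane and Ly6g, which define immature or mature neutrophils, did not pass the filter and had at most 34 counts in any mouse. Endothelial genes were at 6.60 ± 0.0906 and 6.74 ± 0.0983 (SD, n = 6 each, exact permutation p = 0.0325, adjusted 0.130). T cell genes had 8 of 8 tested members above 0, all 8 with an unadjusted p under 0.05 in edgeR, and a median log2FC of 3.25, the highest of the lists, with a mean log2 CPM of 6.36 in A4 and at most 1.90 in any other mouse. The smooth muscle, adipocyte, brown fat and T cell lists had adjusted p of 0.719, 0.507, 0.507 and 0.507 in the same exact permutation test. The part of these cells in the values of the 10 genes was not tested beyond the correlations among mice.

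Correlations were computed over the 12 mice with group means removed, between each of the 10 genes and each of the 8 marker lists, and 0 of 80 passed 5% FDR. Nqo1 had the strongest one, with red cell genes (Pearson's r = 0.859, permutation p = 0.00186, adjusted 0.0828, Spearman's rho = 0.832, permutation p = 0.00316, adjusted 0.253). It was 0.722 among controls and 0.917 among AZ6983 mice, and 0.826 without A1 and C4, the mice farthest from the median. The next in size was Nqo1 with smooth muscle genes (r = 0.782, permutation p = 0.00547, adjusted 0.146, rho = 0.587, permutation p = 0.0619, adjusted 0.615), and r was 0.473 without A5 and C2. Blvrb was negatively related to smooth muscle genes (r = -0.751, permutation p = 0.00207, adjusted 0.0828, rho = -0.664, permutation p = 0.03, adjusted 0.480), and r was -0.621 without A5 and C2. It was positively related to adipocyte (r = 0.727, permutation p = 0.0216, adjusted 0.259), brown fat (r = 0.669, permutation p = 0.0179, adjusted 0.259) and endothelial genes (r = 0.632, permutation p = 0.0392, adjusted 0.349). Without the 2 farthest mice of each list these r were 0.102, 0.513 and 0.514. Hmox1 followed the macrophage genes (r = 0.742, permutation p = 0.00842, adjusted 0.168, rho = 0.699, permutation p = 0.00967, adjusted 0.326), with r = 0.597 without A2 and A5. Between the genes themselves 0 of 45 pairs passed 5% FDR. Gclc and Gclm had the smallest p (r = 0.682, permutation p = 0.00683, adjusted 0.286, rho = 0.748, permutation p = 0.0121, adjusted 0.544), with r = 0.585 without A1 and C3. For this pair r was 0.852 among controls and 0.348 among AZ6983 mice.

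**Figure D5:**
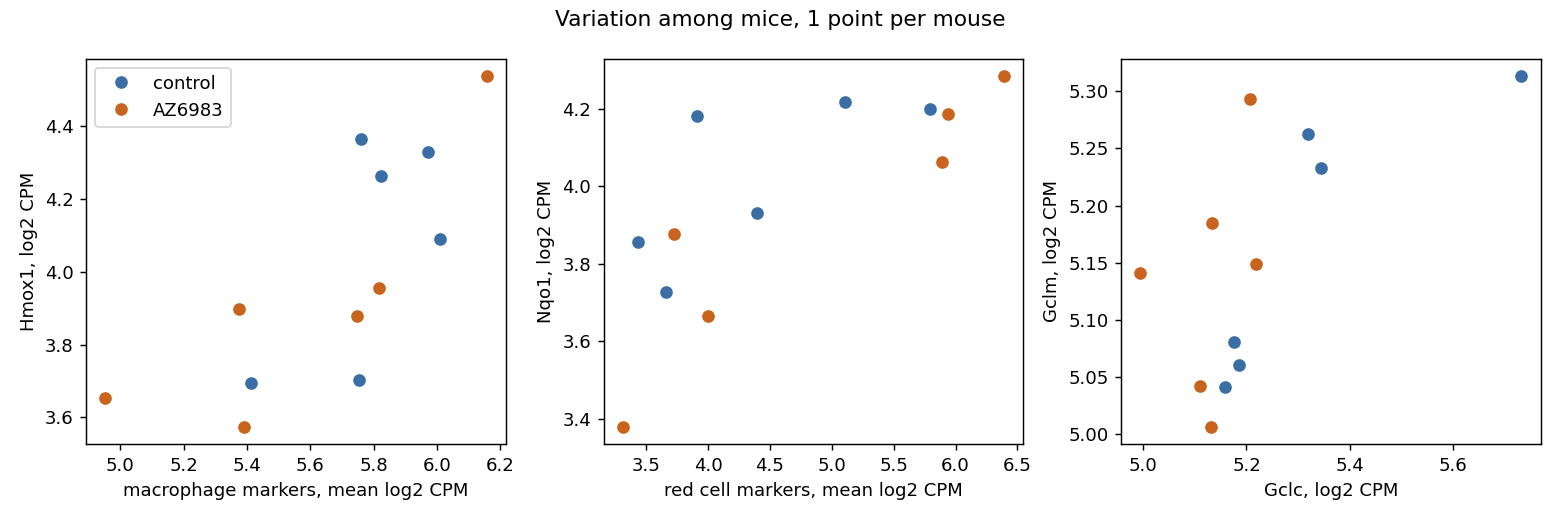
Log2 CPM of Hmox1 against the mean of macrophage genes, of Nqo1 against the mean of red cell genes, and of Gclm against Gclc, 1 point per control or AZ6983 mouse. Once group means are removed r lies between 0.682 and 0.859, and 0 of these relations passed 5% FDR. For Gclm against Gclc r is 0.852 among controls and 0.348 among AZ6983 mice.

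Over 12947 other genes with a mean of at least 50 counts, those whose log2 CPM was most like that of Nqo1 over the 12 mice, with group means removed, were Rabac1 (Pearson's r = 0.981), Tmem18 (0.977) and Bbs9 (0.974). For Hmox1 they were Fcgr2b (0.949), Fnip2 (0.919) and Syk (0.918). For Blvrb they were AW112010 (0.942), Thumpd3 (0.916) and Arap3 (0.906), and for Nfe2l2 Mesdc1 (0.921), Siah2 (0.900) and Rbms2 (0.870). These points share libraries and depth, and the genes are the leading ones of many, so the values are a description.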

How the data were processed

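The authors prepared stranded, ribosome-depleted total RNA libraries from 1 aorta per mouse and deposited raw counts per gene symbol without normalization. The submitters' processing notes name CASAVA 1.8.2, STAR 2.5.2b, HTSeq 0.6.1p1 and the build mm10. The annotation and strand setting are not given in the sources used here. Another 3 rows name no gene (reads on no gene, ambiguous reads, and reads aligned to several places, the last 18.1% to 23.2% of reads per mouse) and were left out, so genes with near-identical copies, such as the hemoglobin and ferritin genes, are undercounted. No 2 libraries were copies (chi-square per degree of freedom 12.0 to 226 over 66 pairs).

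Group differences in counts were fitted in edgeR 4.0.16, under R 4.3.3 (TMM, filterByExpr, quasi-likelihood test, AZ6983 against control, Benjamini-Hochberg adjustment over 15857 genes, 10% FDR). Adjusted p-values of single genes come from this fit unless another is named beside them. Those given with the no-gene share in the model come from the edgeR fit with that term. Standard errors were taken as log2FC over root F. Log2 CPM had a prior count of 2. Single values were compared by exact permutation tests, two-sided, whose smallest p with 6 mice against 6 is 0.00216, and correlations by 100000 permutations within groups. RPKM used exon lengths of GENCODE M21 (GRCm38), and positions are from the same annotation. Promoter sequences are from RefSeq.

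The 10 genes, the lists and the naming rule were set with earlier results of these data known. Named from each pathway list were the most abundant gene per length and those with the lowest and highest fold change, and for 4 genes the 3 most similar ones. The same rule covered the marker lists, which are given here by their mean levels instead. The correlations between the genes themselves were added after the data were seen. Flvcr1 and Flvcr2 were matched by their older symbols, and Ahsp was not analysed here. Alternatives were DESeq2 1.42.0, limma-voom (limma 3.58.1), other scalings and filters, 5% FDR, a term for the no-gene read share, and each mouse left out in turn. The steps were tested on simulated data.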

Additional observations from a re-analysis of the deposited data

Results flagged for a closer look

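In 40 groups of 6 mice, each a gene of the list, a ratio or a marker list in 1 treatment group, 4 had 1 mouse set apart from the other 5 by Dixon's test, where chance gives about 2 (1 in 20). Gclc in control mouse C3 was at 5.73 log2 CPM, with the other controls at 5.16 to 5.34, and the log2 ratio of Gclc to Gclm counts in C3 was 0.42, with the others at 0.06 to 0.13. These 2 values share the Gclc count of C3, so the 4 are not independent of each other. Brown fat genes in control mouse C6 had a mean of 7.20 log2 CPM, with the other controls at 7.81 to 8.02. T cell and thymocyte genes in mouse A4 had a mean of 6.36 log2 CPM, with the other AZ6983 mice at -0.50 to 1.90. The cause of these values was not tested.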

How the results depend on the processing

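Blvrb was higher in AZ6983 mice under every alternative run. It was picked for being higher in these same mice, so this is no independent support. Of the other 9 genes 0 passed 10% FDR under any alternative. The number of the 10 genes called was 1 (Blvrb) with DESeq2 on every gene or on filtered genes, and 0 elsewhere. Over all genes the calls were 92 of 17592 and 84 of 15638 genes tested with these DESeq2 fits. They were 4 with limma-voom and quality weights, and 0 to 27 with a mouse left out, 27 of them without A5 and 1 each without C6 and A1. The library of A5 had the lowest TMM scaling factor, 0.837. The sign turned for Blvra with a mean of at least 50 counts (0.00082) and, with the no-gene read share as covariate, for Blvra (0.22), Nqo1 (0.24) and Gclm (0.0525). With a mouse left out Blvra lay between -0.0572 and 0.0462, the log2 difference of the Hmox1 to Hmox2 ratio between -0.199 and 0.0524, and that of Gclc to Gclm between -0.185 and -0.106, the latter with an unadjusted p above 0.05 without C1, C3, A1, A3 or A5. Nfe2l2 lay between -0.0942 and -0.0081, Gclm between -0.0705 and -0.0117 and Txnrd1 between -0.0877 and -0.0279. The 12 mice limit what can be seen, since standard errors of the 10 genes were 0.0482 to 0.173 on the log2 scale. No cause was tested. No paired analysis was possible because the labels give no pairing of mice.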
